A study of Mus musculus with 6 samples.

Results

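Cathepsins and cystatins were followed through the mouse kidney as 10 genes, named by symbol: the proteases Ctsa, Ctsb, Ctsc, Ctsd, Ctsh, Ctsl, Ctss and Ctsz, and the inhibitors Cst3 and Cstb. They are 10 of the 33696 genes in the deposited matrices. Each gene was read in 6 single-cell libraries, as molecule counts (UMIs) summed over the cells of a mouse or over 1 cell type of a mouse, and expressed as CPM, the gene's UMIs scaled to a common total of 1000000 UMIs in the same cells.

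Cathepsins are proteases that work mainly in the acid interior of lysosomes, where they degrade proteins delivered by endocytosis and autophagy. Most are cysteine proteases, and cathepsin D is an aspartic protease. Proximal tubule cells take up filtered protein and depend on this system, and macrophages use it to process engulfed material and antigen. Cystatins block cysteine cathepsins: cystatin C, the product of Cst3, is secreted, and cystatin B, the product of Cstb, acts inside the cell.

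The study compared kidneys of 3 sham mice with those of 3 DOCA-salt mice, all male C57BL/6 and 8 to 10 weeks old when purchased. DOCA-salt mice lost the left kidney and 1 week later received a pellet of 50 mg deoxycorticosterone acetate, a mineralocorticoid receptor agonist, together with 1% NaCl in the drinking water for 21 days. Sham mice had surgery without a pellet and drank normal water, so nephrectomy, hormone and salt cannot be told apart. Kidneys were digested with collagenase II and captured with a 10x Genomics kit that reads the 3′ ends of transcripts, so levels of 2 genes are not compared with each other here.

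The 6 libraries held 76774 barcodes, between 11058 and 14449 a mouse, with 93172739 to 137819127 UMIs a mouse. After filters 55630 cells remained, and pairs of libraries shared between 33 and 69 barcode sequences. The median mitochondrial share of the kept cells was 19.2, 19.6 and 25.8% in sham mice 1 to 3 and 15.5, 18.2 and 19.6% in DOCA-salt mice 1 to 3. Mitochondrial UMIs count in the CPM totals, and the part of this difference in the results was not tested. Clusters were named from marker genes after the 10 genes had been kept out of the clustering. Macrophages numbered 149, 128 and 135 cells in sham mice 1 to 3 and 420, 609 and 671 in DOCA-salt mice 1 to 3. In them 7 of 8 markers, C1qa, C1qb, C1qc, Mrc1, Adgre1, Ms4a7 and Fcgr1, were higher than in any other named type, while Csf1r stood at 386 CPM against 422 in another type. Defining markers were also highest in their own type for proximal tubule cells (8 of 8), distal convoluted tubule cells (6 of 6) and principal cells (7 of 7). Sham mouse 2 stood apart for 3 of the 10 genes: among the sham mice it had the lowest Ctsa, Ctsz and Cst3 in 15 of the 15 sums that all 6 mice had, 14 named types and the cells without a name, and the highest Cstb in 13 and the highest Ctsl in 11. Among the DOCA-salt mice, mouse 2 had the highest Ctsz in 14 of these sums, Ctsa in 12 and Cst3 in 11. It had the lowest Ctsl in 10 and the lowest Cstb in 10. Calls that arise without sham mouse 2 are given for summed kidneys, macrophages, endothelial cells, T or NK cells, and proximal tubule, thick ascending limb, distal convoluted tubule and principal cells.

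The sequences before the starts of 4 of these genes are shown, because Ctsd was called higher in 3 distal nephron segments and Ctsl in distal convoluted tubule cells, and because macrophages held larger shares of the Ctss and Ctsc UMIs than of those of the other members. They are the 250 bases upstream of the start in RefSeq (GRCm38.p6), a build older than the GRCm39 build of the deposited counts. Promoter entries were matched for 7 of the 10 members, namely Ctsa, Ctsc, Ctsd, Ctsl, Ctss, Ctsz and Cst3. Capitals mark CACGTG, an E-box that is the core of the element bound by the lysosomal regulators of the Tfeb, Tfe3 and Mitf family, in the first pair. The Ctsd window is chr7:142387828-142388077, minus strand, and the Ctsl window is chr13:64370521-64370770, minus strand.
Ctsd: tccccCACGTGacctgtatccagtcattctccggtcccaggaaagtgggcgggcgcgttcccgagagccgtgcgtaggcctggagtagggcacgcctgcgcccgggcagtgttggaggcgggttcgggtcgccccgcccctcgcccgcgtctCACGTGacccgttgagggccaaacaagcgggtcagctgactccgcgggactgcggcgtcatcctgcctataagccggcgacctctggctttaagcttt
Ctsl: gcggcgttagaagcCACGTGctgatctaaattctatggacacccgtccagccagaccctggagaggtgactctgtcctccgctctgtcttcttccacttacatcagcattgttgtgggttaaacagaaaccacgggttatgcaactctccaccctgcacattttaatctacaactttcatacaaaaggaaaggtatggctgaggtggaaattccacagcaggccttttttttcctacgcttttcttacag
Ctsd held 2 matches, beginning 245 and 98 bases before the start, and Ctsl held 1, beginning 236 bases before it. CACGTG occurs in 6.02% of the 32851 RefSeq windows of this length, and 2 or more copies occur in 0.429%. In the second pair capitals mark GAGGAA on either strand, printed as TTCCTC where it lies on the other one, letters found in sites of the myeloid factor PU.1 and other ETS proteins. The Ctsc window is chr7:88277835-88278084, plus strand, and the Ctss window is chr3:95526536-95526785, plus strand.
Ctsc: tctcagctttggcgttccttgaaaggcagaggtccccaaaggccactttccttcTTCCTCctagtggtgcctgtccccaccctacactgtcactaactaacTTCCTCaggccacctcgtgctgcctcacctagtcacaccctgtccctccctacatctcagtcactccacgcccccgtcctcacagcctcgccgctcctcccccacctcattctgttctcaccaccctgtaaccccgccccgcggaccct
Ctss: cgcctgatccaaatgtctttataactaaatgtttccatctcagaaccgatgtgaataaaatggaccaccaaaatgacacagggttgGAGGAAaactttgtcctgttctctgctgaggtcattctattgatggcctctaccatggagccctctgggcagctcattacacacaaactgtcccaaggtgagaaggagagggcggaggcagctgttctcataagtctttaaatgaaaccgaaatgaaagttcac
Ctsc held 2 matches and Ctss held 1, and these letters occur in 23.3% of all windows, with 2 or more copies in 3.54%. The motifs do not overlap each other, and a match is only a match of letters. In the windows of the other matched members, CACGTG lay once before the second Ctsa start, GAGGAA lay once before Cst3, and neither lay before Ctsz.

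In the GENCODE annotation of GRCm39 all 10 are protein-coding genes. Ctsd lies at chr7:141929646-141941775 on the minus strand, Ctsl at chr13:64507151-64518704 on the minus strand, Ctss at chr3:95433963-95463717 on the plus strand and Ctsc at chr7:87927092-87960096 on the plus strand. Ctsb (chr14:63358384-63383372) overlaps Fdft1 on the opposite strand, Ctsz (chr2:174267304-174280832) overlaps Nelfcd, Ctsa (chr2:164674778-164682961) overlaps Pltp and Neurl2, and Ctsl overlaps the noncoding Gm47123, also on opposite strands. Ctsd overlaps Gm49369 on its own strand, and Ctsl and Ctss overlap processed pseudogenes on theirs, Gm49230 and Hmgb1-ps5. None of these 3 is among the genes counted in the files. Reads of such partners were not separated further here.

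In sham kidneys the members fell into 2 kinds of pattern. The order of levels covers the 14 cell types with at least 10 cells in every mouse, so fibroblasts, neutrophils and urothelial cells are not in it. Macrophages held the highest mean of the 14 for Ctsa, Ctsb, Ctsc, Ctsh, Ctss and Ctsz, with monocytes next for 5 of them and dendritic cells next for Ctsh. Ctss, an elastinolytic cysteine protease that trims the invariant chain of MHC class II, averaged 1313 ± 290.2 (SD, n = 3) CPM in macrophages and 0.659 ± 0.171 in proximal tubule cells. The sham mice of macrophages overlapped those of the next type for each of these genes except Ctsc, the activator of granule serine proteases, which averaged 1058 ± 216 in macrophages and 340.3 ± 45.04 in monocytes. Nephron cells led among the 14 for Ctsd, Ctsl and Cstb. Ctsd was highest in intercalated cells (549.8 ± 55.2), Ctsl in proximal tubule cells (605 ± 128) and Cstb in descending and thin limb cells (185 ± 9.84). The proximal tubule mice overlapped those of descending and thin limb cells for Ctsl, and fibroblasts, left out of the order, had higher Ctsl in the 1 sham mouse with enough cells. Intercalated, principal, distal convoluted tubule and thick ascending limb cells followed each other in that order for Ctsd with mice that did not overlap, although the last pair lay within 1 CPM of each other, whereas the sham macrophages came 12th of 14 at 126 ± 33.5. Cst3 was highest of the 14 in dendritic cells, at 7804 ± 1605, followed by macrophages at 3459 ± 1069.

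In what follows, 3 values against 3 values are those of sham mice 1, 2 and 3 against those of DOCA-salt mice 1, 2 and 3, and a log2 change is DOCA-salt over sham with its SE. The first comparison asked which members differed between sham and DOCA-salt kidneys when all cells of a mouse were summed. These sums kept an unnamed cluster with 612 of its 620 cells from DOCA-salt mouse 2, whose part in the result was not tested. Ctsc, Ctsd and Ctss rose, and no member fell. Ctss showed the greatest rise of the 10, and its values in the 2 groups lay far apart.

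Ctss was at 12.9, 19.2 and 13.8 CPM in sham mice 1, 2 and 3 and at 59.6, 80.7 and 116 in DOCA-salt mice 1, 2 and 3. Its log2 fold change was 2.36 ± 0.24 (SE), with an adjusted p of 0.000848 by edgeR over all genes tested. Ctsc was at 23.7, 29.5 and 30.6 in sham mice and at 62.6, 87.5 and 89.8 in DOCA-salt mice, a log2 change of 1.39 ± 0.15 (adjusted p = 0.00116). Every DOCA-salt mouse was above every sham mouse for both genes. Ctsd, which degrades proteins at acid pH and activates other lysosomal enzymes, was at 265, 291 and 289.6 in sham mice and 433, 395 and 400.1 in DOCA-salt mice. The mice of the 2 groups did not overlap for Ctsd, and the change was smaller, at 0.42 ± 0.11 (adjusted p = 0.0297). This call was lost when any 1 mouse other than sham mouse 2 was left out, with adjusted p up to 0.120, while the change stayed in the range 0.37 to 0.47.

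Of all 19658 genes tested in summed kidneys, 11.5% were called higher, against 3 of the 10 members. The median log2 change was 0.32 over the members and -0.02 over all genes tested. By raw CPM, 5 members were higher in every DOCA-salt mouse than in every sham mouse, against 26.6% of all genes. The other pair was Ctsb and Cstb. Ctsb, a cysteine protease released to the cytosol when lysosomes leak, was at 258, 283 and 293 in sham mice and 347, 392 and 383 in DOCA-salt mice (log2 change 0.31 ± 0.10, adjusted p = 0.0781). Cstb was at 96.1, 125 and 93.9 against 143, 131 and 160.3 (log2 change 0.35 ± 0.13, adjusted p = 0.109). Without sham mouse 2 the Cstb change of 0.48 passed, with an adjusted p of 0.018, and scaling by library size alone brought both Ctsb and Cstb past the threshold. Ctsb also passed in DESeq2 (0.30, adjusted p = 0.0368) and with at most 20% mitochondrial UMIs (0.69, adjusted p = 0.00515). Scaling by library size moved the median of all genes by 0.12 and the share of called genes that were higher from 67.0% to 81.5%.

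The remaining 5 members overlapped between groups. Ctsa, a serine carboxypeptidase that also protects sialidase and beta-galactosidase in the lysosome, was at 96.8, 65.3 and 105 in sham mice and 89.2, 114 and 92.4 in DOCA-salt mice. Ctsz, a carboxypeptidase, was at 112, 75.3 and 114 against 101, 142 and 113, and Cst3 was at 341, 238 and 427 against 382, 529 and 473. Sham mouse 2 was the lowest of all 6 for these 3 genes. Ctsl, a cysteine endopeptidase, was at 463, 633 and 428 in sham mice and 554, 443 and 581 in DOCA-salt mice, and Ctsh, an aminopeptidase, at 161, 191 and 140.5 against 179, 163 and 194. Their adjusted p-values lay between 0.337 for Cst3 and 0.982 for Ctsh.

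**Figure D1:**
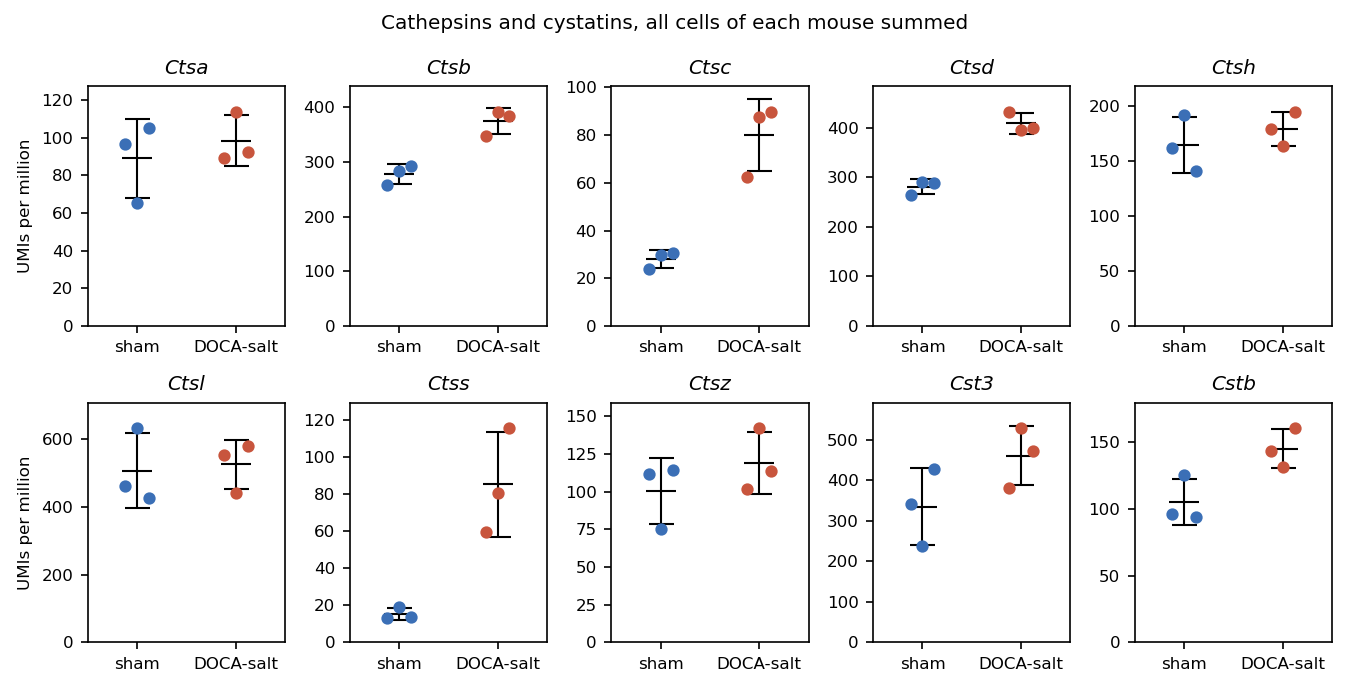
CPM (linear axes from 0) of the 10 genes with all cells of a mouse summed. Points are mice, bars the mean ± SD of 3 mice. The DOCA-salt mice lie above all sham mice for Ctsb, Ctsc, Ctsd, Ctss and Cstb, and the groups overlap for the other 5 genes.

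Summed kidneys mix the content of cells with the number of cells, which cannot be told apart in such a sum. The next question was therefore how much of each member's message lay in macrophages, whose share of all cells was 1.36 to 1.66% in sham mice and 4.74 to 6.95% in DOCA-salt mice. For Ctss, macrophages held 63.6% ± 2.34 (SD, n = 3) of its molecules in the sham group and 79.1% ± 4.93 in the DOCA-salt group. For Ctsc the share went from 28.2% ± 5.03 to 59.7% ± 8.66, and for Cst3 from 7.61% ± 0.938 to 20.9% ± 3.60. Ctsz moved from 3.70% ± 0.350 to 18.6% ± 4.92, Ctsh from 2.80% ± 0.0863 to 16.2% ± 4.45 and Ctsb from 2.08% ± 0.313 to 14.5% ± 4.29. The shares were small for Ctsd, 0.329% ± 0.0709 and 5.06% ± 1.69, and for Ctsl, 0.222% ± 0.0413 and 1.49% ± 0.610. Ctsa and Cstb were at 9.07% ± 2.45 and 4.14% ± 1.58 in DOCA-salt kidneys. All 10 shares were higher in every DOCA-salt mouse than in every sham mouse, as they were for 62.9% of all genes. The exact permutation test gave p = 0.1 for each, two-sided, which is the smallest p that 3 mice against 3 allow. Without doublet removal 9 of the 10 shares did so, and that of Ctss overlapped, at 55.2, 61.02 and 58.7% against 58.6, 57.02 and 65.9%.

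**Figure D2:**
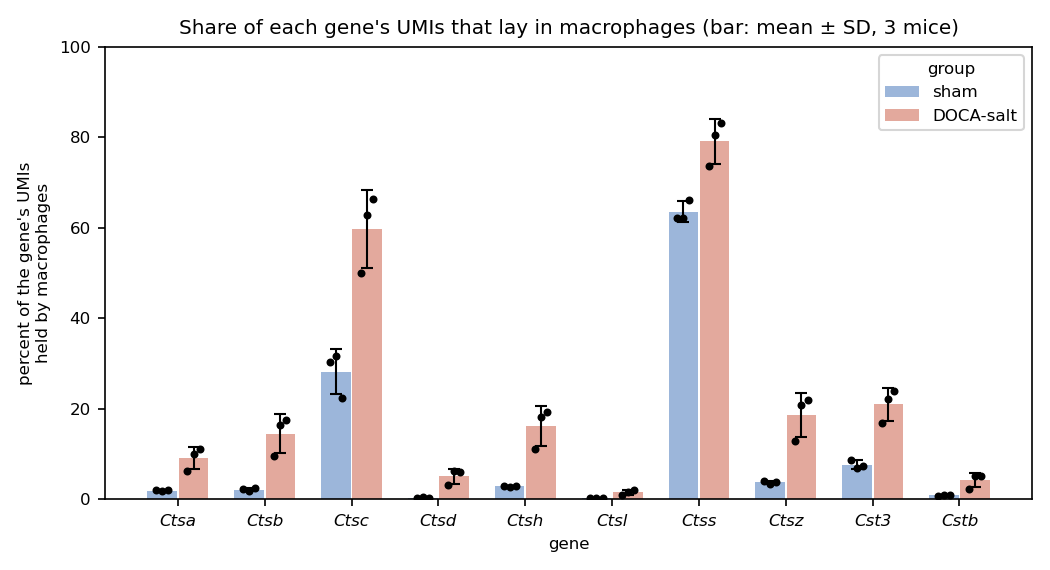
Percent of each gene's UMIs that lay in macrophages (linear axis from 0 to 100). Bars are the mean and whiskers the SD of 3 mice, points are mice. Macrophages held most of the Ctss UMIs in both groups, and under 10% of the Ctsd, Ctsl, Cstb and Ctsa UMIs on average.

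Levels were then recomputed with every cell type held at its mean sham share of UMIs, with the cells without a name taken as 1 type. The mix of clusters within a type was not held. Cluster 42, unnamed with leading genes of macrophages, had 1, 2 and 1 cells in sham mice and 22, 16 and 12 in DOCA-salt mice. The part of such clusters in the recomputed levels was not tested. On that scale Ctss was at 15.02, 18.8 and 12.9 in sham mice and 28.3, 24.9 and 28.4 in DOCA-salt mice, a log2 ratio of means of 0.80 against 2.48 without the adjustment. The ratio for Ctsc fell to 0.43 from 1.52. The Ctsd ratio changed least among the members called in summed kidneys, to 0.46 from 0.54. Cst3 went to -0.15 from 0.46 and Ctsz to -0.05 from 0.24, so that their direction turned, with overlapping groups both ways. At sham shares 4 members, Ctsb, Ctsc, Ctsd and Ctss, were still higher in every DOCA-salt mouse, against 17.1% of all genes (exact p = 0.1, the smallest possible). Without doublet removal, an alternative added after seeing the data, the same 4 members did so and the ratio at sham shares was 1.48 for Ctss and 0.71 for Ctsc. When macrophages were left out of the sums, the edgeR change was 1.52 for Ctss, 0.57 for Ctsc and 0.40 for Ctsd, and each passed the test (adjusted p = 0.00176, 0.0316 and 0.0425). When all named immune cells were left out Ctsc no longer passed, at 0.53 (adjusted p = 0.0544), and the Ctss change was 2.79. Cells of clusters without a name remained in that sum, and their Ctss was at 8.04, 14.1 and 5.03 in sham mice and 96.8, 39.95 and 57.8 in DOCA-salt mice. They included clusters 29 and 42, of 45 and 54 cells, with leading genes of macrophages. Cluster 41, of 164 cells with leading genes of T or NK cells, was also among them. These 3 clusters also remained when macrophages alone were left out, and their part in the Ctss change was not tested.

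Within macrophages the question was whether a member's CPM changed, apart from the number of cells. Ctsd and Ctsb rose, and none of the other 8 passed the test. Ctsd was at 104, 164 and 109 CPM in sham mice 1, 2 and 3 and at 617, 712 and 528 in DOCA-salt mice 1, 2 and 3. The lowest DOCA-salt mouse was above 3 times the highest sham mouse, and the log2 change was 2.21 ± 0.20 (adjusted p = 1.49e-05). Ctsb was at 778, 678 and 875 in sham mice and 1524, 1878 and 1492 in DOCA-salt mice, a log2 change of 0.97 ± 0.17 (adjusted p = 0.00323). Of 8847 genes tested in macrophages, 2.85% were called higher, against 2 of the 10 members, and the median log2 change was 0.42 over the members and 0.01 over all genes. Scaling by library size alone moved the median of all genes in macrophages by 0.10 and the share of called genes that were higher from 53.5% to 69.3%, with both members still called and Ctsl called as well (0.62, adjusted p = 0.0372). Of 18 genes that respond to tissue dissociation, Ier3 and Nr4a1 were called higher in macrophages and Hspa1a, Hsp90aa1 and Dnajb1 lower, and their part in the result was not tested.

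Ctsc, Ctsh, Ctsl and Ctss were also higher in each DOCA-salt mouse than in each sham mouse, which with Ctsb and Ctsd makes 6 of 10 members, against 17.4% of all genes. Ctss was at 1132, 1648 and 1161 against 2012, 1908 and 2137 (log2 change 0.52 ± 0.18, adjusted p = 0.11), and passed without the filter on low counts (0.60, adjusted p = 0.0211). Ctsl was at 159, 152 and 134 against 214, 204 and 265 (adjusted p = 0.0756, 0.0323 without the filter on low counts and 0.0495 with at most 20% mitochondrial UMIs), Ctsh at 632, 718 and 515 against 908, 865 and 836 (adjusted p = 0.202), and Ctsc at 1013, 1293 and 869 against 1432, 1616 and 1323 (adjusted p = 0.289). Without sham mouse 2, which had the highest sham Ctss and Cstb, 4 members passed: Ctss with a log2 change of 0.70 and Cstb with 0.77 joined Ctsb and Ctsd. Cstb was at 94.9, 173 and 97.2 against 152, 196 and 179 with all mice. Cst3 was at 4139, 2226 and 4011 in sham mice and 2962, 3422 and 2505 in DOCA-salt mice, Ctsz at 630.4, 345 and 544 against 602, 868 and 554, and Ctsa at 263, 160.3 and 261 against 258, 329.8 and 226. The groups overlapped for these 3 genes and for Cstb.

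**Figure D3:**
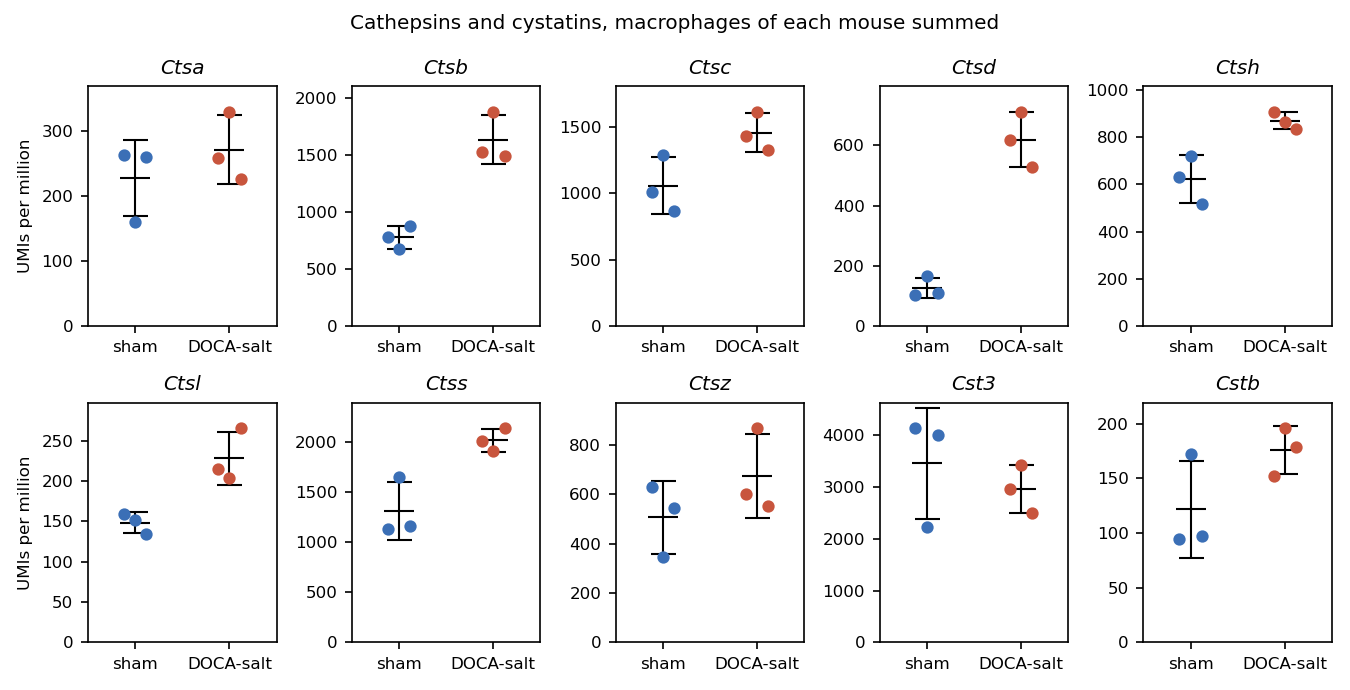
CPM (linear axes from 0) of the 10 genes in the macrophages of each mouse. Points are mice, bars the mean ± SD of 3 mice. The groups are furthest apart for Ctsd, 104 to 164 in sham and 528 to 712 in DOCA-salt mice, and overlap for Ctsa, Ctsz, Cst3 and Cstb.

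The macrophage sums of the 2 groups came from different clusters. Cluster 27, led by Ccl4, Ccl3 and Cd86, held 290 of the 412 sham macrophages and 50 of the 1700 from DOCA-salt mice. Clusters 28, led by complement C1q genes, 30, led by Ccl4, Cxcl2 and Ccl3, 37, led by Ccl7 and Ccl12, and 39, of few UMIs, held most of the DOCA-salt cells with 674, 323, 278 and 189. Cluster 36, led by the elastase gene Mmp12, held 102 cells of DOCA-salt mice and 4 of sham mice. Within cluster 27 alone, pooled Ctsd was at 95.3 in sham and 275 in DOCA-salt cells and pooled Ctsb at 735 and 1290. In DOCA-salt mice Ctsd ranged over clusters from 275 in cluster 27 to 1996 in cluster 36, whose 3 mice lay between 1551 and 2278, and the 5 other clusters lay between 343 and 516. Cluster 36 also had the highest pooled Ctss (2801), Ctsz (1358), Cstb (499) and Ctsb (2021) and the second lowest Ctsc (881) of the 7 clusters in DOCA-salt mice. These clusters were set without the members' own counts.

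Macrophages with a UMI of Trem2, Fcrls or Gpnmb, genes of lipid-handling macrophages, made up 66 of the 412 sham cells and 947 of the 1700 DOCA-salt cells. In these Ctsd was at 142, 510.1 and 309.8 in sham mice, each from 33 or fewer cells, and 836, 915 and 735 in DOCA-salt mice. In cells with none of these UMIs Ctsd was at 91.6, 93.05 and 69.7 against 173, 209 and 183, a log2 change of 1.06 (adjusted p = 0.00408). Ctsb was at 685, 585 and 753 against 1054, 1301 and 1154 in the same cells (adjusted p = 0.0434). When cells were instead picked one by one, each needed 3 or more of the 8 markers. Proximal tubule markers could make up no more than 2% of its UMIs. In this set the Ctsd change was 1.52 (adjusted p = 0.0232) and the Ctsb call was lost, at 0.45 (adjusted p = 0.427). In the same cells the sign turned for 5 uncalled members, at -0.19 for Ctsc, -0.05 for Ctsh, -0.05 for Ctss, -0.29 for Ctsa and -0.20 for Ctsz, and none of the 5 was called. Proximal tubule cells themselves held 7829 to 8448 CPM of their summed markers, under the 2% limit. The limit need not keep them out, and the make-up of the picked set was not tested. Its values therefore cannot show what changed within macrophages alone.

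Mean depth was 3810 to 4312 UMIs a macrophage in sham and 4755 to 5776 in DOCA-salt mice. With each cell thinned to 1000 UMIs, the share of macrophages with a Ctsd UMI was 9.38, 9.84 and 8.43% in sham mice and 26.3, 27.5 and 22.98% in DOCA-salt mice, where the unthinned means were 29.04% and 58.5%. For Ctsb the thinned shares were 48.7, 42.7 and 51.7% against 71.8, 74.5 and 68.7%. The exact permutation p was 0.1 for both genes, the smallest the design allows, and thinning left out 13 sham and 158 DOCA-salt macrophages with fewer UMIs. Proximal tubule cells, whose sham Ctss mean was below 1 CPM, served as the background for Ctss. Their thinned shares with a Ctss UMI were 0.0865, 0.0286 and 0.0903% in sham and 0.328, 0.338 and 0.546% in DOCA-salt mice, against 64.4, 74.7 and 63.1% against 81.5, 77.2 and 82.3% in macrophages. Median depths were 8903 and 9963 UMIs in proximal tubule cells and 3862 and 4720 in macrophages.

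The nephron was examined next, segment by segment. Ctsd rose in the 3 distal segments, distal convoluted tubule, principal and intercalated cells. These segments include the main targets of mineralocorticoids in the kidney. In principal cells, which reabsorb sodium through the epithelial channel, Ctsd was at 454, 444 and 443 CPM in sham mice and 1156, 1528 and 1474 in DOCA-salt mice. The sham mice lay close together, every DOCA-salt mouse was more than 2 times higher than each of them, and the log2 change was 1.68 ± 0.16 (adjusted p = 5.35e-05). In distal convoluted tubule cells Ctsd was at 398, 399.9 and 427 against 1199, 849 and 973, a log2 change of 1.11 ± 0.16 (adjusted p = 0.000401). In intercalated cells, which move acid and base, it was at 519, 614 and 517 against 977, 803 and 834, a log2 change of 0.70 ± 0.13 (adjusted p = 0.013). The intercalated call was lost, with adjusted p of 0.0506 to 0.0653, when any of sham mice 1 and 3 or DOCA-salt mice 1 and 3 was left out, whereas the principal and distal convoluted tubule calls held in all 6 such fits.

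Elsewhere along the tubule Ctsd did not pass. It was at 225, 259 and 238 in sham and 292, 267 and 273 in DOCA-salt proximal tubule cells (log2 change 0.14 ± 0.11, adjusted p = 0.489). In thick ascending limb cells it was at 390.2, 398 and 392 against 522, 416 and 405 (log2 change 0.18 ± 0.13), and in descending and thin limb cells at 146, 156 and 171 against 178, 176 and 179. In these 3 types the mice did not overlap although the changes were small. The share of all genes higher without overlap was not computed for them. It was 12% in principal and 25.7% in distal convoluted tubule cells. In cells with at most 20% mitochondrial UMIs, clustered anew, Ctsd, Ctsl and Cstb passed in thick ascending limb cells. Their log2 changes were 1.36, 1.44 and 1.01, and Ctsz passed as lower (-1.25, adjusted p = 0.0241). The type held 585 cells there, against clusters of 3151 and 1034 cells in the main setting. With the main clusters Ctsz also passed as lower in thick ascending limb cells without sham mouse 2 (-0.93, adjusted p = 0.00419) and without the filter on low counts (-0.69).

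**Figure D4:**
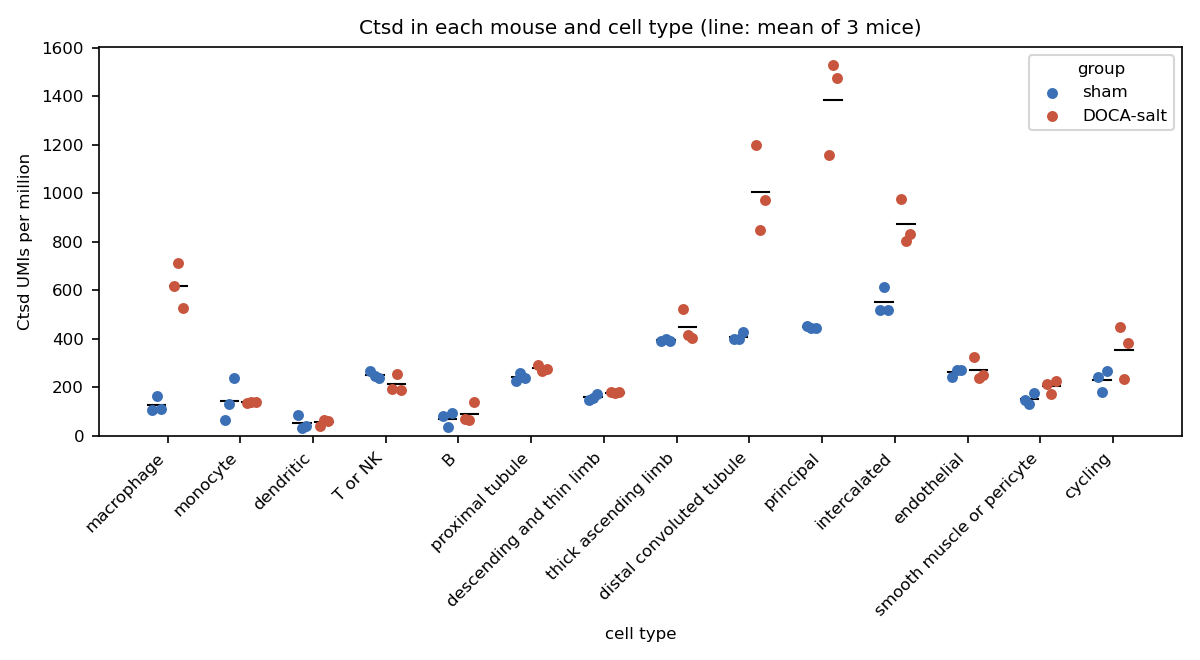
Ctsd CPM (linear axis from 0) in 14 cell types. Points are mice and lines the mean of 3 mice. The groups separate most in macrophages, distal convoluted tubule cells, principal cells and intercalated cells, and sham principal cells lie between 443 and 454.

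Distal convoluted tubule cells, the site of the thiazide-sensitive cotransporter, carried 4 called members of the 9 tested: Ctsc, Ctsd, Ctsl and Cstb, all higher, where 6.56% of genes were called higher. Ctsl was at 171, 172 and 180.0 in sham mice and 471, 358 and 352 in DOCA-salt mice, a log2 change of 0.98 ± 0.16 (adjusted p = 0.000811). The sham mice lay close together, and with at most 20% mitochondrial UMIs the change was 0.74 (adjusted p = 0.053). Cstb was at 98.5, 136 and 86.4 against 219.9, 173 and 176 (log2 change 0.66 ± 0.17, adjusted p = 0.0223), a call lost without sham mouse 1, sham mouse 3 or DOCA-salt mouse 1, without doublet removal (0.56, adjusted p = 0.0606) and at Leiden resolution 2 (0.57, adjusted p = 0.0697). Ctsc was at 34.6, 38.2 and 46.5 against 93.1, 91.01 and 72.4 (log2 change 0.90 ± 0.18, adjusted p = 0.00329), a call lost with clusters at Leiden resolution 2 (0.59, adjusted p = 0.0885). Without sham mouse 2 the Ctsz change of -0.75 passed as lower (adjusted p = 0.0357). With Ctsh and Ctss, 6 of the 10 did not overlap between groups, against 25.7% of the genes tested there. Ctss did not pass the filter on low counts in these cells and is not among the genes tested.

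Other measures moved with these cells, and their part in the result was not tested. Cells of this type held on average 4622 to 6699 UMIs each in sham mice and 7334 to 11626 in DOCA-salt mice. Of 18 genes that respond to tissue dissociation, 7 were called higher there, among them Atf3 and Egr1, and 2 were called lower, Ier3 and Nr4a1. The summed level of 8 macrophage markers in the same cells was 7.86 to 22.1 CPM in sham and 39.3 to 45.4 in DOCA-salt mice. Scaling by library size alone raised the share of called genes that were higher from 60.9% to 83.7% in these cells, with the median of all genes moved by 0.19.

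Principal cells carried 2 called members of 10, Ctsd and Ctsh, where 4.66% of genes were called higher. Ctsh was at 297, 328 and 256 in sham mice and 465, 437 and 488 in DOCA-salt mice, a log2 change of 0.71 ± 0.14 (adjusted p = 0.00722), without overlap. Ctsl was at 206, 246 and 196 against 262, 261 and 346 (adjusted p = 0.0841) and Cst3 at 835, 473 and 763 against 419, 580.1 and 467 (log2 change -0.45 ± 0.21, adjusted p = 0.22). Without sham mouse 2, whose Cst3 was the lowest of the sham mice, the Cst3 change of -0.67 passed as lower (adjusted p = 0.0117), and Ctsc and Ctsl passed as higher. Without DOCA-salt mouse 2 Ctsc (0.92), Ctss (1.59) and Cstb (0.59) passed as higher, with edgeR adjusted p of 0.0409 to 0.0422. Ctsc and Ctss passed without the filter on low counts, and Ctsc without doublet removal (0.84, edgeR adjusted p = 0.0256). In all, 5 members, Ctsb, Ctsd, Ctsh, Ctsl and Ctss, did not overlap, against 12% of genes. Principal cells held on average 7704 to 10272 UMIs each in sham and 9846 to 15516 in DOCA-salt mice, and 3 of 18 dissociation genes, Dusp1, Hspa1b and Hsph1, were called higher in them. The summed level of the 8 macrophage markers in these cells was 5.01 to 11.2 CPM in sham and 24.6 to 65.7 in DOCA-salt mice, and the part of these measures in the result was not tested.

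**Figure D5:**
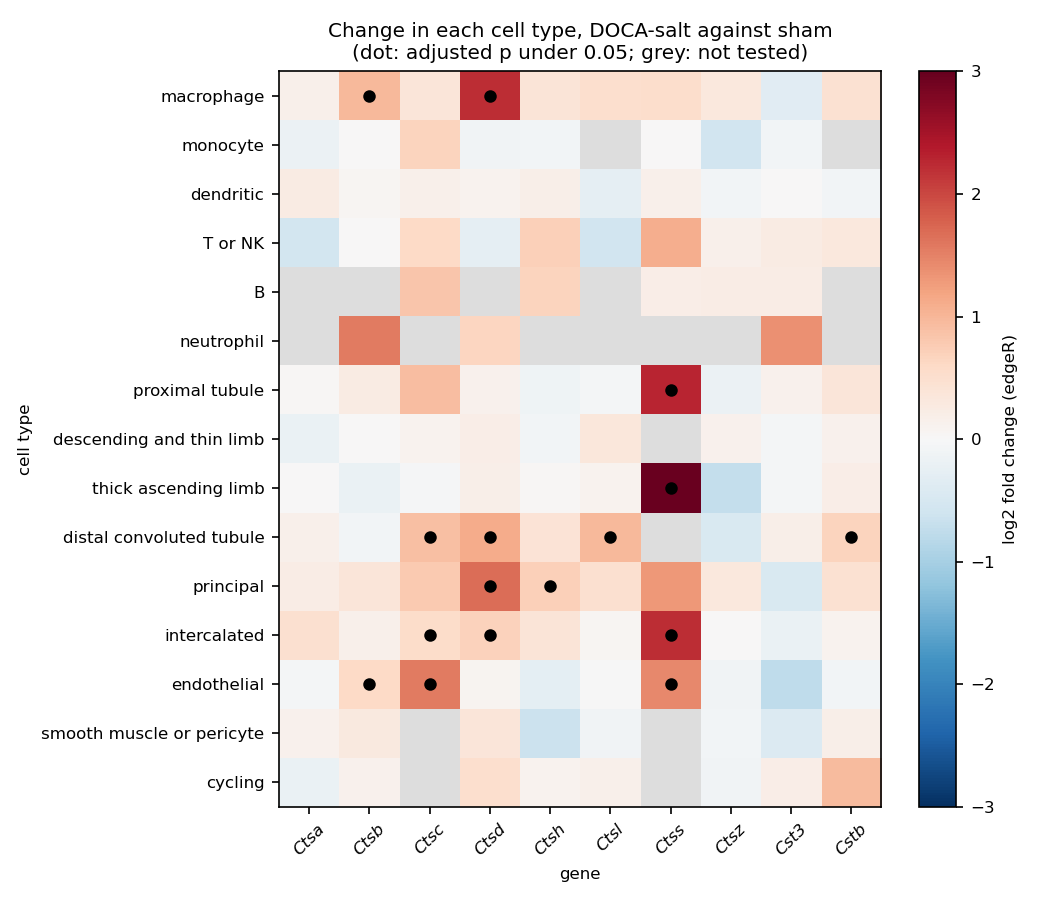
Log2 fold change (colour) of each gene in 15 cell types, DOCA-salt against sham, by edgeR. Black dots mark adjusted p under 0.05 and grey cells were not tested. Ctsd is called in 4 types and Ctss in 4 types at high fold but low level, and no cell type shows a called fall.

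Proximal tubule cells, the most numerous type, had a single called member. Ctss was at 0.813, 0.474 and 0.690 CPM in sham mice and 2.96, 3.02 and 4.19 in DOCA-salt mice, from 48, 21 and 26 against 156, 149 and 149 UMIs (log2 change 2.28 ± 0.25, adjusted p = 0.00181), where 5.95% of genes were called higher. The mean of sham macrophages was 1313 CPM on the same scale. Low levels also underlay the Ctss calls in thick ascending limb cells, at 0.610, 0.549 and 0.361 against 4.27, 4.33 and 3.85, and in intercalated cells, at 0.984, 0.531 and 0.418 against 2.79, 3.62 and 3.12. They came from 4, 2 and 2 UMIs in sham and 26, 27 and 15 in DOCA-salt thick ascending limb cells, and from 6, 2 and 2 against 16, 18 and 14 in intercalated cells. Their log2 changes were 2.97 ± 0.39 and 2.21 ± 0.41. The intercalated call was lost without sham mouse 3 (adjusted p = 0.0635), without DOCA-salt mouse 3 (0.0541) and without doublet removal, where the change was 1.60 (adjusted p = 0.0616). The summed level of the 8 macrophage markers was 7.42 to 9.30 in sham and 25.8 to 38.9 in DOCA-salt thick ascending limb cells. It was 7.97 to 12.1 in sham and 19.6 to 33.2 in DOCA-salt intercalated cells. In proximal tubule cells it was 40.7 to 67.5 in sham and 67.03 to 77.2 in DOCA-salt mice, and the groups overlapped. The part of these markers in the Ctss values was not tested. The background was 0.706% of genes called higher in thick ascending limb cells, with 1 member called, and 3.21% in intercalated cells, with 3 members called. The third of these was Ctsc, at 36.9, 54.7 and 43.3 against 64.1, 63.6 and 64.5 (log2 change 0.55 ± 0.14, adjusted p = 0.0491), a call lost without any 1 mouse other than sham mouse 2. It was also lost in DESeq2, with DESeq2 size factors, with library size only and at Leiden resolution 2, with adjusted p of 0.0515 to 0.0641, and with at most 20% mitochondrial UMIs the change was 0.29 (adjusted p = 0.515). Of the other intercalated values, Ctsa was at 52.6, 26.3 and 57.3 against 60.4, 71.7 and 55.98, Ctsb at 279.7, 288 and 299 against 329, 305 and 313 and Ctsh at 81.5, 75.99 and 70.2 against 89.6, 107 and 97.02, with adjusted p of 0.286, 0.473 and 0.0671, and without the filter on low counts Ctsa passed (0.46, adjusted p = 0.0328).

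The other 9 members did not pass in proximal tubule cells. Ctsl was at 537, 752 and 526 in sham mice and 636, 505 and 673 in DOCA-salt mice, and Ctsb at 260.4, 306 and 311 against 345, 382 and 368 (log2 change 0.25 ± 0.12, adjusted p = 0.236). Cstb was at 87.4, 115 and 80.9 against 121, 114 and 145 with all mice (adjusted p = 0.19), and its change of 0.53 passed without sham mouse 2 (adjusted p = 0.0137). Ctsc was at 1.34, 2.01 and 2.76 against 3.25, 5.04 and 3.74, adjusted p = 0.0798, and passed in DESeq2 (0.90, adjusted p = 0.0263) and without the filter on low counts (0.92, adjusted p = 0.0284). Thick ascending limb cells held more Ctsc, 108, 150.3 and 142 in sham and 141, 115 and 139 in DOCA-salt mice, with overlapping mice. In descending and thin limb cells no member of the 9 tested was called by edgeR, where 0.766% of genes were, 1 member, Ctsl, had an unadjusted p under 0.05, and DESeq2 called none.

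Endothelial cells had 3 called members, Ctsb, Ctsc and Ctss, where 5.43% of genes were called higher. Ctsb was at 180.4, 178 and 185 in sham mice and 251, 293 and 265 in DOCA-salt mice, a log2 change of 0.59 ± 0.11 (adjusted p = 0.00889). The sham mice lay close together and all DOCA-salt mice were higher. Ctsc was at 2.15, 1.37 and 1.47 against 5.41, 4.23 and 5.44 and Ctss at 1.61, 4.11 and 1.76 against 7.82, 4.96 and 7.07, while the summed macrophage markers were at 10.9 to 15.8 and 31.2 to 35.5, and their part in these values was not tested. Each of the 3 calls was lost when some single mouse was left out: Ctsb without sham mouse 1, DOCA-salt mouse 2 or DOCA-salt mouse 3, and all 3 without DOCA-salt mouse 3. Cst3 was at 1161, 812 and 1529 against 822, 741 and 497, a log2 change of -0.76 ± 0.24 (adjusted p = 0.0798). Without sham mouse 2 its change of -0.96 passed as lower (adjusted p = 0.00514), and DESeq2 called it lower with all mice.

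Among other immune cells no member was called by edgeR or by DESeq2. Dendritic cells held the highest Cst3 of the 14 ordered types, at 7475, 6388 and 9547 in sham mice and 9226, 7583 and 7593 in DOCA-salt mice, and Ctss there was at 759, 576 and 422 against 604, 753 and 652. None of the 5826 genes tested in dendritic cells, none of 1517 in monocytes, none of 1670 in B cells and none of 461 in neutrophils was called by edgeR, where unadjusted p-values under 0.05 were given to 344, 66, 102 and 20 genes and DESeq2 called 11, 0, 0 and 0. Among members, unadjusted p-values under 0.05 were those of Ctsc in monocytes and B cells and of Cst3 in neutrophils. The sums tested in these types held 10 to 95 cells a mouse. The neutrophil fit dropped sham mouse 1 and DOCA-salt mouse 3, which had under 10 cells. In T or NK cells, with 2.81% of genes called, Ctss was at 42.1, 33.00 and 42.2 against 96.8, 59.6 and 97.8 (log2 change 1.08 ± 0.30, adjusted p = 0.0582), beside macrophage markers of 4.95 to 12.99 and 35.9 to 174. It passed with library size only (adjusted p = 0.0493), without the filter on low counts (0.0352), without DOCA-salt mouse 2 (0.021) and at Leiden resolution 2 (0.049), with changes of 0.99 to 1.26. Ctsc in these cells changed by 0.60 ± 0.34 and passed without sham mouse 2 (1.26, adjusted p = 0.0437). Monocytes kept Ctss at 1178, 1175 and 806 against 828, 1137 and 1297 and Ctsb at 728, 693 and 836 against 693, 882 and 788, with overlapping groups. Smooth muscle or pericyte cells (1.88% of genes called) and cycling cells (0.959%) gave no called member in the main edgeR fit or in DESeq2. Each had 1 unadjusted p under 0.05 in the main fit, that of Ctsh and that of Cstb. Without the filter on low counts Cstb passed in cycling cells (0.96, edgeR adjusted p = 0.0153). Without doublet removal Ctsa, Ctsb, Ctsd, Ctsh and Cstb passed as higher in smooth muscle or pericyte cells. That class then also held a cluster led by C3, Cp and Ncam1.

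Fibroblasts could not be tested, because sham mice 2 and 3 had 6 and 9 cells, nor could urothelial cells, of which sham mice had 8, 1 and 5 and DOCA-salt mice 4, 13 and 10. In sham mouse 1, with 24 cells, Cst3 was at 7358 CPM and Ctsl at 1445, and Ctss was at 0 UMIs. In DOCA-salt mice 1, 2 and 3, with 217, 303 and 319 cells, Cst3 was at 1065, 1773 and 1133 and Ctsl at 969, 789 and 988. A cluster with fibroblast markers, 612 of its 620 cells from DOCA-salt mouse 2, was left out of these sums, a choice made after seeing the data, and with it Cst3 of that mouse was 878 and Ctsl 548. With that cluster the sham mice, from 25, 9 and 10 cells, had Cst3 at 6327, 1580 and 5033, Ctsl at 1281, 955 and 684 and Ctss at 0, 147 and 0. The Ctsl values of sham and DOCA-salt mice then overlapped. Levels from so few cells give no order between the groups.

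Whether the changes differed between cell types was tested by an interaction over both types of each mouse. For macrophages against proximal tubule cells the Ctsd change was larger in macrophages by 2.11 ± 0.16 log2 units (SE; edgeR adjusted p = 1.42e-36). In all, 7 members passed this test, 5 with a larger change in macrophages (Ctsb, Ctsd, Ctsh, Ctsl and Ctsz), where 2.49% of genes passed, and 2 with a smaller one (Ctsc and Ctss), where 3.39% did. That fit gave all genes 1 common spread, and its p-values are far smaller than those of the alternative that follows. In limma on the difference within each mouse, added after seeing the data, only Ctsd passed (adjusted p = 0.0418), and the other 6 lay between 0.128 and 0.586. The fold of Ctss in proximal tubule cells rests on the low levels given above.

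A further pair of comparisons was tested after the changes had been seen. The Ctsd change was larger in principal than in proximal tubule cells by 1.55 ± 0.14 (edgeR adjusted p = 2.46e-07, limma 0.0353). It was larger in distal convoluted tubule than in proximal tubule cells by 0.98 ± 0.15 (edgeR 1.79e-05, limma 0.0558). Ctsl differed likewise between distal convoluted and proximal tubule cells by 1.04 ± 0.17 (edgeR adjusted p = 7.25e-05, limma 0.064), and Ctsh between principal and proximal tubule cells by 0.86 ± 0.12 (edgeR 5.03e-05, limma 0.0577). Of all genes, 6.16% passed as higher in the distal convoluted pair, with 2 members, and 4.26% in the principal pair, with 3 members. In the principal pair 4.07% passed as lower, Cst3 among them.

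The other genes of the lysosome were read from 6 lists: other cathepsins, other cystatins, activating and partner enzymes, hydrolases, membrane and sorting proteins, and transcription factors. Of their 87 genes 63 could be tested in summed kidneys, where 9 were called higher and 1 lower, against 11.5% and 5.69% of all genes, with a median change of 0.04 against -0.02 over all genes. The largest rise was that of Ctsk, the collagen-degrading cathepsin, from 1.23, 0.957 and 0.937 CPM in sham mice to 7.54, 9.33 and 13.6 in DOCA-salt mice (log2 change 3.15 ± 0.24, adjusted p = 0.000328). Laptm5, a lysosomal membrane protein of blood cells (1.29), Hexa, a hexosaminidase subunit (0.82), Scarb2, the sorting receptor of glucocerebrosidase (0.75), and the phospholipase Pla2g15 (0.70) followed. Galc, a galactosylceramidase, changed by -0.34 and was the one called lower. No other cystatin among the 3 tested was called.

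In macrophages 7 of the 56 list genes tested were called higher, against 2.85% of all genes, with a median change of 0.25 against 0.01 over all genes. Acp5, tartrate-resistant acid phosphatase, was at 12.5, 16.2 and 15.6 in sham mice and 66.6, 97.2 and 51.1 in DOCA-salt mice (log2 change 2.20 ± 0.34). Grn, the precursor of lysosomal granulins, was at 98.1, 118 and 109 against 281, 309 and 259 (1.29 ± 0.16). Mitf, of the transcription factor family named with the E-box above, was at 93.4, 93.4 and 99.1 against 193, 236 and 209 (1.06 ± 0.16). Pla2g15 (1.31) also rose, as did Ctse, an aspartic protease like Ctsd, at a low level (1.83, edgeR adjusted p = 0.0482). Ctse was at 4.67, 2.03 and 1.94 CPM in sham mice and 12.5, 11.9 and 10.9 in DOCA-salt mice. In proximal tubule cells 3 of 58 were called, Hexa (0.63), Manba, a mannosidase (0.60), and Mitf (0.59), all higher, against 5.95% of all genes, with a median of 0.05 against -0.01. Genes of the next 3 types were named after their values were seen. In principal cells 4 of 50 rose, against 4.66% of all genes: the ceramidase gene Asah1 (0.87), Manba (0.75), the membrane glycoprotein gene Lamp1 (0.69) and the peptidase gene Tpp1 (0.63). In distal convoluted tubule cells 2 of 51 rose, against 6.56% of all genes, Grn (0.90) and Cd63 (0.75), and Lipa, a lipase, fell, where 4.22% of all genes did. Of the transcription factor list, 3 genes were tested in principal cells and 3 in distal convoluted tubule cells. None was called, and the median changes were -0.31 and -0.14. In endothelial cells 2 of 56, Arsb (-0.60) and Scpep1 (-0.77), fell, against 3.97% of all genes, and none rose.

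The members differed in the genes whose levels they followed over 94 sums of 17 cell types, among 7307 genes. These correlations of log levels are descriptions, since sums of a mouse share a library and sums of a type share their cells. Ctss was most like Cd86, a costimulatory molecule (r = 0.96), then Cd83 (0.93) and Cybb, the phagocyte oxidase subunit (0.92). Ctsz was most like Zeb2 (0.89), Cst3 like Ifi207 (0.82), Cstb like Tbcb (0.80), Ctsl like Timp3, an inhibitor of matrix metalloproteases (0.76), and Ctsb like Lrmda (0.76). The nearest genes were Ctss for Ctsc (0.75), Pcyt1a for Ctsa (0.75) and H2-DMb1, an MHC class II chaperone, for Ctsh (0.74). Ctsd, with Nudt4 (0.69), had the lowest best match of the 10. Among members the highest correlation was that of Ctsc with Ctss and the lowest that of Ctsl with Ctss (-0.60), and Ctsd with Ctss stood at -0.50.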

How the data were processed

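Kidney cells of 3 sham and 3 DOCA-salt mice were measured by 10x single-cell RNA-seq, and groups followed the sample labels. The authors deposited raw UMI counts per gene and barcode for each library on GRCm39. The submitters' notes name Cell Ranger 9.0.0 and Seurat 4.0.0, while the matrix headers name Cell Ranger 8.0.1. The labels do not say whether mice were processed separately beyond their libraries, so p-values measure the spread between these 6 samples.

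Barcodes had at least 500 UMIs and were kept with at most 50% mitochondrial and 5% hemoglobin UMIs. Of 76774 barcodes 60561 passed, and 4931 were removed by a doublet score at 0.8% per 1000 barcodes. Cells were clustered on 2000 variable genes without the 10 members, 30 components and 15 neighbours (scanpy 1.11.5, Leiden resolution 1). Clusters were named from marker lists, and a cluster with over 90% of its cells from 1 mouse was left unnamed. Counts were summed per mouse and cell type where at least 10 cells were present. Sums were tested with edgeR 4.0.16 (quasi-likelihood test, TMM, filterByExpr) in R 4.3.3, adjusted by Benjamini-Hochberg over all genes tested, threshold 0.05. DESeq2 1.42.0 and limma 3.58.1 served as alternatives. Single values were compared by exact two-sided permutation, whose smallest p with 3 against 3 is 0.1. Levels are CPM (counts scaled to 1000000 per sum), without TMM factors, whereas fold changes include them. The procedure was tested on simulated data.

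All 10 members were tested in each cell type where they passed the filter, and the text gives part of these values. Of the lysosome lists, at most the 5 largest rises and falls past the threshold were named in summed kidneys, macrophages and proximal tubule cells. The result of 1 list gene is not reported here. Likeness used log2(CPM + 1) over genes with a mean of at least 20. The members, lists and markers were chosen with earlier results of these data known. Promoter windows came from RefSeq on GRCm38.p6, and no sequence is shown for Ctsb, Ctsh and Cstb.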

Additional observations from a re-analysis of the deposited data

Results flagged for a closer look

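In 13 comparisons the change of a member differed between 2 cell types of the same mice by the edgeR interaction test. Between macrophages and proximal tubule cells, the difference in log2 change (macrophages minus proximal tubule) was 2.11 for Ctsd, 0.75 for Ctsb, 0.61 for Ctsl, 0.57 for Ctsh, 0.53 for Ctsz, -0.54 for Ctsc and -1.65 for Ctss. Of these 7, Ctsd alone passed in limma on the difference within each mouse, with an adjusted p of 0.0418.

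In the comparisons chosen after seeing the data, the difference between distal convoluted tubule and proximal tubule cells was 0.98 for Ctsd and 1.04 for Ctsl. Between principal and proximal tubule cells it was 1.55 for Ctsd, 0.86 for Ctsh, 0.54 for Ctsl and -0.55 for Cst3. In limma Ctsd passed in the principal pair (adjusted p = 0.0353), and the adjusted p was 0.0558 for Ctsd in the distal convoluted pair and 0.159 and 0.173 for Ctsl and Cst3 in the principal pair.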

How the results depend on the processing

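Of 2083 values of single members under the alternatives, 1979 kept their side of the threshold, 57 lost a call, 45 gained one and 2 were called with the opposite sign of an uncalled value: Ctsb in distal convoluted tubule cells became 0.84 with at most 20% mitochondrial UMIs, and Ctsh in smooth muscle or pericyte cells became 0.65 without doublet removal, where the class held cluster 19 of 803 cells and also cluster 26 of 1159 cells, led by C3, Cp and Ncam1 with none of the class's markers among its top 10 genes. In addition, 168 uncalled values changed sign. Most of the 2083 values were of members uncalled in the main fit, and only called ones could lose a call. In summed kidneys 3 members were called, 5 with library size only, and 2 to 4 when 1 mouse was left out. In endothelial cells 3 were called, and 0 to 4 when 1 mouse was left out, with 0 without DOCA-salt mouse 3. In macrophages 2 were called, 4 without a filter on low counts, and 2 to 4 with 1 mouse left out (4 without sham mouse 2). In cells picked by markers, which may include proximal tubule cells, 1 was called. In proximal tubule cells 1 was called, 2 with DESeq2, 2 without the filter, 2 with at most 20% mitochondrial UMIs, and 1 to 2 with 1 mouse left out (2 without sham mouse 2). In the other cell types together 10 calls became 19 without the filter, 17 without doublet removal, and 7 to 16 with 1 mouse left out (16 without sham mouse 2). Alternatives for these types were added after seeing the data. For the difference between macrophages and proximal tubule cells 7 members became 1 in limma, and 3 to 7 with 1 mouse left out (3 without DOCA-salt mouse 2). The 10 members with higher macrophage shares were 9 without doublet removal and 10 at resolution 2, and the 4 members higher at sham shares were 4 again under both. The cause of these moves was not tested.

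With the replicate number as a block, the count of called members was 2 in summed kidneys, where Ctsd had an adjusted p of 0.129, and 0 in endothelial cells. The block also ended the 3 calls in intercalated cells (adjusted p of 0.169 for Ctsc, 0.0964 for Ctsd and 0.0660 for Ctss) and the Cstb call in distal convoluted tubule cells (0.0619). Same-numbered mice had correlations of -0.02, -0.41 and -0.05 between their deviations in summed kidneys. With 3 mice a group and deviations taken from each group's own mean, these values cannot show whether same-numbered mice were handled together. The block could not be fitted in neutrophils. The share of higher calls went from 68.6% to 79.1% in proximal tubule cells with library size only.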
